A study of Mus musculus with 8 samples.

Results

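Macrophages of the photothrombotic (PT) cortical lesion were selected from single-cell RNA sequencing data by a gate on their transcripts, and 1650 of 46216 kept droplets met it. A droplet was kept with at least 2000 unique molecular identifiers (UMIs, which count captured RNA molecules) and less than 20% mitochondrial UMIs. Per 10000 UMIs, a member held a sum of at least 10 of Ms4a7, Arg1, Gpnmb and Fabp5 and at least 3 of Tyrobp. It held less than 1 of the microglial transcripts P2ry12, Tmem119, Sall1 and Siglech, less than 0.5 of the border-associated transcripts Cd163, Lyve1 and Cbr2, less than 3 of the monocyte transcripts Ly6c2, Chil3 and Plac8, and less than 10 of Col1a1 and Col1a2. Droplets with UMIs of 3 or more of 5 division genes (Mki67, Top2a, Cenpf, Cdk1, Ccnb2) or of 5 interferon genes (Ifit2, Ifit3, Rsad2, Usp18, Oasl2) were left out. The gate therefore fixes the levels of these genes, and every difference between members and other cells given below is a description without a test.

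The libraries came from the injury site and the spared cortex around it on day 6 after PT, a clot made by light and a photosensitive dye. Adult mice labelled Bl/J6 and female carried osmotic pumps from 2 days before PT, with saline in 4 control mice or 2.4 U per day of ancrod in 4 mice. Ancrod is a snake venom protease that depletes fibrinogen from the blood, and the comparison addresses how the absence of fibrinogen alters cells of the lesion. All mice were injured, so no value for uninjured cortex is given. The mice fell into 2 batches, the second with 1 control and 1 ancrod mouse, and every mouse gave its own library. Library depth was 97861434 to 122758649 UMIs for saline and 126682918 to 142139441 for ancrod, without overlap.

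Blood monocytes enter a stroke lesion and become macrophages, which take up dead cells, myelin and blood products. The engulfed material is broken down in lysosomes, and the released cholesterol is exported on apolipoprotein E or stored in lipid droplets. Macrophages filled with lipid are known to express Gpnmb, a lysosome-associated membrane glycoprotein, Fabp5, a fatty acid carrier, and Spp1, which encodes the secreted matrix protein osteopontin. Microglia, the resident macrophages of the brain parenchyma, and border-associated macrophages of the vessels and meninges are related cells with other origins.

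The promoter of Gpnmb, which led the list of transcripts by ratio to other cells, is shown because the gate and the split of the macrophages described below both rest on this gene. RefSeq gives it in build GRCm38.p6 at chr6:49036268-49036567, plus strand, from 250 bases before to 50 bases after the start. Capitals mark TGACTCA, the letters bound by AP-1 factors such as Fos and Jun, the single match of the 3 motifs searched on both strands.
Gpnmb: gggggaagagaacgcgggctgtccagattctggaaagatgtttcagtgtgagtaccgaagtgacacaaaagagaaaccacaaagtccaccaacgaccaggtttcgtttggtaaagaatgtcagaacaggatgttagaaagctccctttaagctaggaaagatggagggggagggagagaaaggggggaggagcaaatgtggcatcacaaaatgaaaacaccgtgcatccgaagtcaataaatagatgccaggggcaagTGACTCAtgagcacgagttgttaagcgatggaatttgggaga

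The second promoter shown is one of 2 that RefSeq lists for Ms4a7, a membrane protein of macrophages, at chr19:11336097-11336396 on the minus strand. Capitals mark GAGGAA, the core of the site of PU.1, a factor of myeloid cells.
Ms4a7: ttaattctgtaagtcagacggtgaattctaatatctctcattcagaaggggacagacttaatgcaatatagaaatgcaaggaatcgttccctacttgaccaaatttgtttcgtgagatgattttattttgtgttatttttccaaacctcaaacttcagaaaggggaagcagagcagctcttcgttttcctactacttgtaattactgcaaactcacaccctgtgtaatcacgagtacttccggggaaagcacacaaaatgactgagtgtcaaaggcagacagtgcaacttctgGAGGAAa

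On either strand, 5.20% of 32851 promoters of this length held TGACTCA and 28.3% held GAGGAA. The third motif, CACGTG, the E-box of the lysosomal regulators MITF and TFEB, was in 7.15% of promoters. The promoter of Lyz2 and the second one of Ms4a7 held none of the 3. These are matches of letters and show no binding. The genes themselves lie, in build GRCm39, at chromosome 6, 49013426 to 49047863 (Gpnmb), chromosome 19, 11298403 to 11313510 (Ms4a7), chromosome 3, 10077602 to 10081674 (Fabp5), chromosome 10, 24791118 to 24803817 (Arg1) and chromosome 10, 117111557 to 117118346 (Lyz2). All 5 are protein-coding.

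The gate held droplets of 2 kinds. Of the 1650 members, 1141 had at least 5000 UMIs, with a median of 30277 UMIs and 4973 genes, and the other 509 (30.8%) had a median of 2667 UMIs and 1026 genes. Lyz2, a lysozyme of macrophages and other myeloid cells that the gate did not use, had a median of 222 UMIs per 10000 in the deeper members and 18.6 in the shallow ones. Gpnmb had a median of 27.8 UMIs per 10000 in the deeper members and 0 in the shallow ones. Fabp5 was the largest of the 4 gate transcripts in 87.4% of the shallow members and in 47.5% of the deeper ones. Fabp5 had a median of 27.3 UMIs per 10000 in the shallow members and 28.4 in the deeper ones.

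The shallow members also carried astrocyte transcripts. Levels are CPM, the UMIs of a gene scaled to a fixed total of the UMIs summed over a class of droplets in a mouse, and UMIs count molecules whatever the transcript's length. The summed level of the astrocyte genes Aqp4, Gja1, Aldoc, Slc1a2 and Gfap was 372 to 8878 CPM over the mice in shallow members, 12.5 to 486 in deeper members and 988 to 4804 in empty droplets, those with at most 100 UMIs. Gfap, the intermediate filament of astrocytes, averaged 1105 CPM in shallow members and 32.5 in deeper ones. The microglial genes that the gate did not use, Gpr34, Olfml3 and Sparc, averaged 206, 232 and 425 CPM in shallow members and 26.8, 107 and 36.3 in deeper ones. Empty droplets averaged 1217 CPM of Fabp5, 273 of Gpnmb and 141 of Ms4a7, so these gate transcripts were also part of the free RNA. The mean of Fabp5 in empty droplets alone lay above the level that the gate asks of its summed marker transcripts. How many shallow members met the gate through free RNA was not tested. The shallow share of the members ranged from 19.3% to 36.7% per mouse. Gpnmb and Fabp5 select the members and do not test the label of macrophage. Lyz2, outside the gate, was high in the deeper members but does not tell macrophages from other myeloid cells. The shallow droplets did not carry the full set of markers, and shares and the tests of ancrod are given with and without them. Levels beside other cells are over all members. Gpnmb averaged 3264 CPM over all members and 3366 over the deeper ones, while the astrocyte sum averaged 404 and 240.

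**Figure D1:**
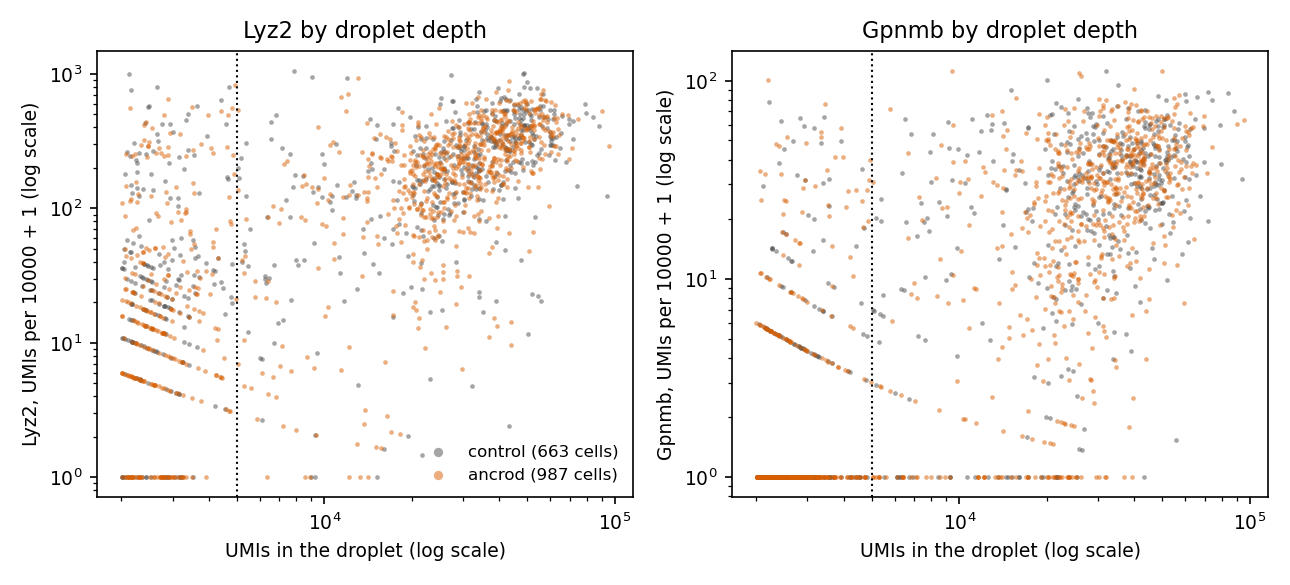
Each point is 1 of the 1650 members, with its UMIs on a log scale on the x axis and Lyz2 (left) or Gpnmb (right) as UMIs per 10000 plus 1 on a log y axis; grey points are from control mice, orange points from ancrod mice, and the dotted line marks 5000 UMIs. The deeper members form a cloud with a median Lyz2 of 222, and the 509 members left of the line spread down to 0.

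The thresholds cut through a continuum for some transcripts. A marker sum of 10 to 12 per 10000 was found in 50 members, and 80 droplets with 8 to 10 failed this criterion alone. For the microglial sum, 183 members lay within 0.25 below the limit of 1 and 178 droplets within 0.25 above it. A total of 96 members had UMIs of 2 division genes and 40 droplets with 3 were left out, and 156 members had 2 interferon genes against 102 droplets left out with 3. Barcodes of 22 members were also kept droplets of another library, and 0 barcodes were shared by members of 2 libraries. Doublet scoring marked 42 of the 1650 members, among 2144 of 46216 kept droplets.

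Markers of other cells were summed per mouse over all members. The 6 monocyte genes, of which the gate limits 3, reached 67.8 to 164 CPM. Of lists that the gate did not use, dendritic cell genes summed to 1.05 to 62.3 CPM, with Xcr1 at 0 in all mice, and T or NK cell genes to 0 to 1.05, with Cd3e at 0. Neutrophil genes summed to 154 to 333 CPM and hemoglobin genes to 0 to 1058, the highest value being that of 1 ancrod mouse. F13a1, a border marker outside the gate, was at 585 ± 81.1 CPM (SD, n = 8 mice).

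Gpnmb was the transcript with the highest ratio to all other kept droplets, among 1146 genes with at least 100 CPM in the members of every mouse. It stood at 3070, 3507, 3260 and 3892 CPM in control mice and at 3191, 2561, 3329 and 3299 in ancrod mice. The mean was 14.3 times that of other droplets. Each mouse was within the range of 2561 to 3892, and the lowest value was that of ancrod mouse 2.

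Spp1 and Lyz2 followed, at 11.4 and 11.5 times the level of other droplets, and the gate used neither. Lyz2 had 36223, 29315, 28561 and 29669 CPM in control mice and 26375, 20141, 31148 and 30860 in ancrod mice. Reads of Lyz2 can be shared with its paralog Lyz1. Spp1 had 46244, 56095, 52833 and 60415 CPM in control mice and 51928, 24730, 65720 and 51458 in ancrod mice. Ancrod mouse 2 was the lowest of the 8 for Gpnmb, Spp1 and Lyz2. Empty droplets held 12711 CPM of Spp1 and 4752 of Lyz2, so that both transcripts were also part of the free RNA.

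The other transcripts among the leading 15 were of several kinds. Pf4, a chemokine first known from platelets, averaged 704 ± 219 CPM, 8.75 times other droplets. Acp5, the tartrate-resistant acid phosphatase of osteoclasts and lysosomes, averaged 177 ± 29.4. F13a1, the A subunit of coagulation factor XIII, which cross-links fibrin, averaged 7.00 times other droplets. Lgals3, which encodes the galactose-binding lectin galectin-3, averaged 1929 ± 367, and Thbs1, the matrix glycoprotein thrombospondin-1, averaged 631 ± 124. Fbxo32, Clec12a, Wfdc17, Msrb1 and the predicted gene Gm21188 completed the list with the gate genes Ms4a7 and Fabp5, and each was higher in the members than in other droplets in 8 of 8 mice.

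Beside microglia, gated as Tyrobp droplets with at least 3 UMIs per 10000 of the microglial sum (19135 droplets), the largest ratios were those of F13a1, Gpnmb, Mgst1, Pf4, Myof and Acp5. F13a1 averaged 585 CPM in the macrophages and 12.3 in microglia. Mgst1, a glutathione transferase of membranes, averaged 231 and 6.90. Of genes that the gate did not use, Csmd3 and Nav3 were among those furthest below microglia, at 6.96 against 746 and 16.8 against 1017 CPM.

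Monocytes were gated with at least 10 UMIs per 10000 of Ly6c2, Chil3 and Plac8 (935 droplets). This gate also held dendritic cell genes, summed to 39.7 to 302 CPM over the mice. T or NK cell genes summed to 0.959 to 159 CPM in it. The largest ratios beside them were those of Igf1, Fcrls, Gas6, Pf4, C1qc and Timp2. Igf1, an insulin-like growth factor, averaged 393 CPM in the macrophages and 11.3 in monocytes. The Fc receptor-like gene Fcrls averaged 605 and 20.5, and Gas6, a ligand that bridges dying cells to phagocyte receptors, averaged 193 and 7.94. The complement gene C1qc averaged 3216 and 188. Free RNA held Fcrls at 590 and C1qc at 2419 CPM, near the macrophage level of Fcrls.

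Beside border-associated macrophages, gated with at least 3 UMIs per 10000 of Cd163, Lyve1 and Cbr2 (299 droplets), Spp1 led at 39.0 times the border level of 1311 CPM. Gpnmb, Cd9, Thbs1, Fabp5 and Gcnt2 followed. In the other direction, the chemokine gene Ccl8 averaged 13.7 CPM in the macrophages and 1918 in border-associated macrophages. The mannose receptor gene Mrc1 averaged 31.3 and 2807. The level plot of 16 genes shows these contrasts for each mouse.

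**Figure D2:**
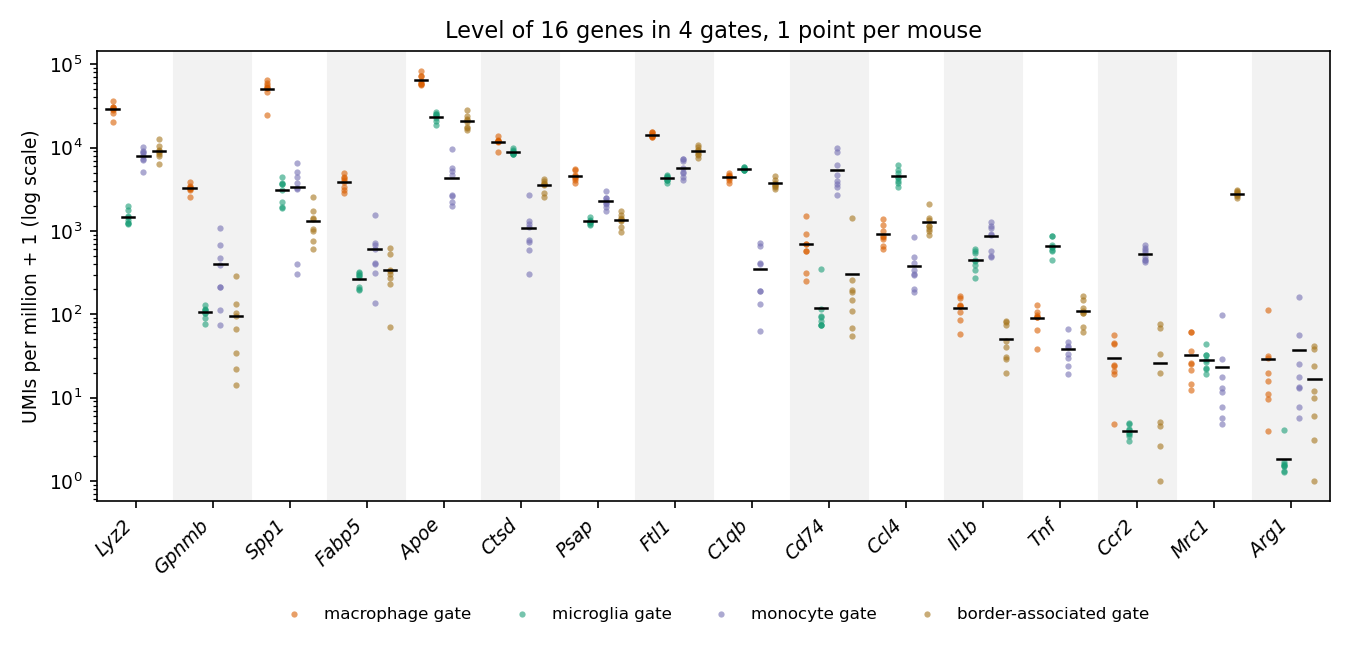
Levels of 16 genes as CPM plus 1 on a log y axis, in 4 gates shown by colour, with 1 point per mouse (8 mice) and a black bar at the mean. Gpnmb and Spp1 are highest in the macrophages in every mouse, while Cd74 is highest in monocytes and Tnf in microglia.

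Genes of lipid handling were high in the macrophages. Of 15 genes on this list, 12 were higher than in microglia in all 8 mice, where 21.1% of 8330 genes were. Beside monocytes, 9 of 15 were higher in all 8 mice (14.6% of 8128 genes), and beside border-associated macrophages 9 of 15 (7.01% of 8369 genes). These shares rest on droplets that the gate had already separated by related transcripts and are not read further. Apoe, the main lipoprotein of cholesterol export in the brain, had 82640, 71545, 57061 and 62946 CPM in control mice and 58277, 57317, 59980 and 73078 in ancrod mice. Microglia averaged 23595 and monocytes 4363. Plin2, which coats lipid droplets, averaged 1866 ± 175 in the macrophages and 402 in microglia. Lipa, the lysosomal lipase that frees cholesterol, averaged 489 ± 43.9 and 135. Trem2, a lipid receptor of phagocytes, averaged 1992 ± 214 in the macrophages and 1498 in microglia. Pparg, a lipid-sensing nuclear receptor, was at 25.4 CPM, below the 151 of monocytes.

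Beside monocytes, 15 of 15 lysosome genes were higher in all 8 mice (14.6% of all genes). Beside microglia, 8 of 15 were higher and 3 lower in all 8 mice, and 50.3% of all genes were lower. The protease gene Ctsd averaged 11801 ± 1375 CPM in the macrophages, 8913 in microglia and 1091 in monocytes. Psap, whose product yields the saposins that help to degrade sphingolipids, averaged 4620 ± 610, with 1299 in microglia and 2276 in monocytes. Atp6v0d2, a subunit of the proton pump, averaged 115 ± 34.6 and averaged at most 6.05 in the other 3 gates. Lgmn, the protease legumain, averaged 1776 in the macrophages and 2454 in microglia.

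Of 10 genes of heme and iron, 6 were higher and 2 lower than in microglia in all 8 mice (21.1% and 50.3% of all genes). Of 9 measured beside monocytes, 5 were higher and 0 lower (14.6% and 37.9%), and beside border-associated macrophages 2 of 10 were higher and 5 lower (7.01% and 31.0%). The ferritin light chain gene Ftl1, which serves iron storage, averaged 14323 ± 898 CPM in the macrophages, above the 4286 of microglia, 5705 of monocytes and 9135 of border-associated macrophages. Slc40a1, the iron exporter ferroportin, averaged 10.5, against 73.0 in microglia and 157 in border-associated macrophages. Hmox1, which degrades heme, averaged 278 in the macrophages and 1109 in border-associated macrophages.

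The list of 12 genes for inflammatory cytokines and enzymes held 10 that reached 10 CPM. Beside microglia, 1 was higher and 6 lower in all 8 mice (21.1% and 50.3% of all genes), with a median log2 ratio of -1.46 (all genes -0.30). Beside monocytes, 1 was higher and 3 lower (14.6% and 37.9%), with a median of 0.76 (all genes -0.32). These counts lay near the shares over all genes. Beside border-associated macrophages 3 were higher and 2 lower (7.01% and 31.0%), with a median of 0.28 (all genes -0.37). Il1b, a major inflammatory cytokine, had 124, 83.7, 106 and 56.4 CPM in control mice and 158, 163, 127 and 123 in ancrod mice. Microglia averaged 450 and monocytes 860. Tnf averaged 88.2 ± 26.9, with 661 in microglia. Il6 and Nos2 averaged less than 1 CPM. Osm, the cytokine oncostatin M, averaged 129 ± 34.4, with 112 in microglia. Nor do transcripts show whether a cell entered from the blood: Ccr2, the receptor of entering monocytes, averaged 28.9 CPM in the macrophages, 3.0 in microglia and 532 in monocytes. The members are therefore called macrophages in what follows.

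Of 16 chemokines and receptors, 3 were higher and 6 lower than in microglia in all 8 mice (21.1% and 50.3% of all genes). Beside monocytes 4 were higher and 5 lower (14.6% and 37.9%). Beside border-associated macrophages 0 were higher and 10 lower (7.01% and 31.0%). Ccl4, a chemokine of activated myeloid cells, averaged 916 ± 262 CPM in the macrophages and 4549 in microglia, and Ccl12 averaged 20.0 and 572. Pf4 was higher in the macrophages than in microglia and monocytes (23.4 and 32.3 CPM) and lower than in border-associated macrophages (1511). Cxcl2, a neutrophil attractant, varied over the mice from 94.3 to 607 CPM.

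Antigen presentation genes differed with the cells set beside the macrophages. All 7 genes of MHC class II were lower than in monocytes in all 8 mice (37.9% of all genes were). The monocyte gate also held dendritic cell genes, whose part in this contrast was not tested. Beside microglia, 4 of 6 were higher and 2 lower in all 8 mice (21.1% and 50.3%), with a median log2 ratio of 2.71. Beside border-associated macrophages 0 of 6 were higher or lower in all 8 mice (7.01% and 31.0%), with a median of 1.34. Cd74, the invariant chain, had 927, 247, 705 and 696 CPM in control mice and 582, 1506, 582 and 311 in ancrod mice, with a monocyte mean of 5430. The class II genes were among the most variable between mice. In the deeper members the coefficient of variation was 56.8% for Cd74, where the median over 1434 genes with a mean of at least 100 CPM was 10.9%. Ancrod mouse 2 was the highest and control mouse 2 the lowest for Cd74. Slc1a2, an astrocyte transporter gene, had the largest coefficient, at 82.3%.

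Interferon response genes were low, in part by construction, since the gate left out droplets with 3 interferon genes. Of 12 other genes of this response, 10 were lower than in microglia (50.3% of all genes) and 9 lower than in monocytes (37.9%) in all 8 mice. Bst2 was higher than in both, at 687 ± 70.3 CPM against 417 in microglia and 261 in monocytes. Of 8 measured cell division genes on the list of 12, 1 was higher and 4 lower than in microglia in all 8 mice. Of all genes, 21.1% and 50.3% were. The macrophage gate also left out droplets with 3 or more division genes. The gates of microglia, monocytes and border-associated macrophages set no limit on division or interferon genes, so these contrasts are partly fixed by the gates. H2az1, a histone variant gene, averaged 494 ± 62.2 CPM.

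Of 10 measured matrix proteases and inhibitors, 5 were higher and 1 lower than in microglia in all 8 mice (21.1% and 50.3% of all genes). The inhibitor gene Timp2 averaged 948 ± 145 CPM, with 880 in microglia and 56.2 in monocytes. Mmp14, a membrane-bound metalloproteinase, averaged 146 ± 13.3, Mmp8 42.8 ± 16.8, Mmp9 1.42 and Mmp13 1.03. A second inhibitor gene, Timp1, averaged 7.11. Of the receptors that bind fibrinogen, Itgam and Itgb2, which form the integrin of macrophages for fibrin, averaged 123 ± 16.9 and 188 ± 14.5. Itgav, the alpha V integrin subunit, averaged 537 ± 81.1, with 233 in microglia and 216 in monocytes. Of 12 fibrinogen receptors and partners, 2 were higher and 7 lower than in microglia in all 8 mice (21.1% and 50.3% of all genes). Of 11 measured beside monocytes, 2 were higher and 4 lower (14.6% and 37.9%). Of 11 beside border-associated macrophages, 3 were higher and 4 lower (7.01% and 31.0%).

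Among transcription factor genes, 5 of 14 were higher and 7 lower than in microglia in all 8 mice, beside 21.1% and 50.3% of all genes. Bhlhe40 averaged 154 CPM in the macrophages and 22.5 in microglia. Runx1 averaged 290 in the macrophages and 921 in microglia. Cebpb averaged 905 in the macrophages and 2234 in monocytes.

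Arg1, which encodes the arginase of alternatively activated macrophages, was scarce although it was one of the gate genes. It had 2.98, 14.7, 29.2 and 8.76 CPM in control mice and 31.0, 111, 18.8 and 9.92 in ancrod mice. A single mouse, ancrod mouse 2, lay far above the others, and in this mouse the monocytes were also the highest, at 160 CPM. After thinning of each cell to 5000 UMIs, with the 509 shallow members left out, 60 of 1141 macrophages held an Arg1 UMI. The thinned share was 1.04% to 6.84% in control mice and 4.32% to 7.33% in ancrod mice, and 3.36% to 13.9% of all members held one without thinning. Endothelial droplets, which should lack Arg1, gave 0% to 0.393% at the same thinned depth, from unthinned medians of 8896.5 to 21096 UMIs. The other genes of the alternative activation list ranged widely. Tgfbi was at 66.5 to 318 CPM over the 8 mice, Vegfa averaged 98.2 ± 27.2, Il4ra 73.3 ± 5.08 and Odc1 55.9 ± 11.3 CPM, whereas Clec10a averaged 3.45 and Retnla was at 0 in the members of all 8 mice. Of 5 measured beside microglia, 2 were higher and 0 lower in all 8 mice (21.1% and 50.3% of all genes), and of 7 beside monocytes 1 was higher and 3 lower (14.6% and 37.9%).

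The 60 cells with Arg1 were compared with the other 1081 as a description, pooled over mice. Nfkbia, an inhibitor of NF-kB, was higher by 1.23 on the log2 scale (753 against 309 CPM), in 6 of 8 mice, and Ccl2, a monocyte attractant, by 1.12 in 5 of 8 mice. Hmox1 was higher by 0.90 in 5 of 8 mice. Cx3cr1, the fractalkine receptor, and Igf1 were lower by -0.90 and -0.86, each in 8 of 8 mice. With 1 to 13 Arg1 cells per mouse, most single-mouse values rest on few UMIs.

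A wider division ran along Gpnmb itself, a split that was chosen after the data had been seen. In each mouse the deeper cells, thinned to 5000 UMIs, were ranked by Gpnmb, and the cells with the most Gpnmb were compared with an equal number with the least, 24 to 67 cells on each side and the middle left out. Log2 ratios carry 20 CPM as a pseudocount. Of 1128 genes, 95 (8.42%) were higher in the Gpnmb-high cells in all 8 mice and 223 (19.8%) lower. The total per cell is fixed, so a rise in some transcripts lowers the share of others.

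Spp1 was higher in the Gpnmb-high cells by 1.52 ± 0.65 on the log2 scale (SD, n = 8 mice), at 57766 against 22320 CPM. Hpse, the heparan sulfate-cleaving enzyme heparanase, was higher by 1.33 ± 0.48, and F13a1 by 1.28 ± 0.55, each in 8 of 8 mice. Fabp5, which the gate sums with Gpnmb, was at 4667 and 1987 CPM. Lysosomal genes went the same way: all 14 measured genes of the lysosome list had a positive mean ratio, and 11 of them were higher in all 8 mice, where 8.42% of all genes were. Psap was higher by 1.12 ± 0.26, Ctsb by 0.97 ± 0.29 and Cd63 by 0.69 ± 0.25. All 11 measured genes of lipid handling, of 15 on the list, had positive ratios, 4 of them in all 8 mice. Trem2 was at 0.72 ± 0.31 and Apoe at 0.65 ± 0.35. Of all 1128 genes, 430 had a positive mean ratio.

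The Gpnmb-low cells carried the class II genes. Cd74 averaged 2541 CPM in the low cells and 111 in the high cells, a log2 ratio of -4.70 ± 1.18. H2-Aa, H2-Eb1 and H2-Ab1 had ratios of -4.56, -4.52 and -3.98, negative in 8 of 8 mice. Il1b averaged 348 CPM in the low cells and 26.3 in the high cells (-3.07 ± 0.72), and Cxcl2 660 and 147 (-2.16 ± 0.65). S100a4, a calcium-binding protein gene of monocytes and dendritic cells, had a ratio of -3.43 ± 0.66 and Ccl2 of -1.95 ± 1.06.

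**Figure D3:**
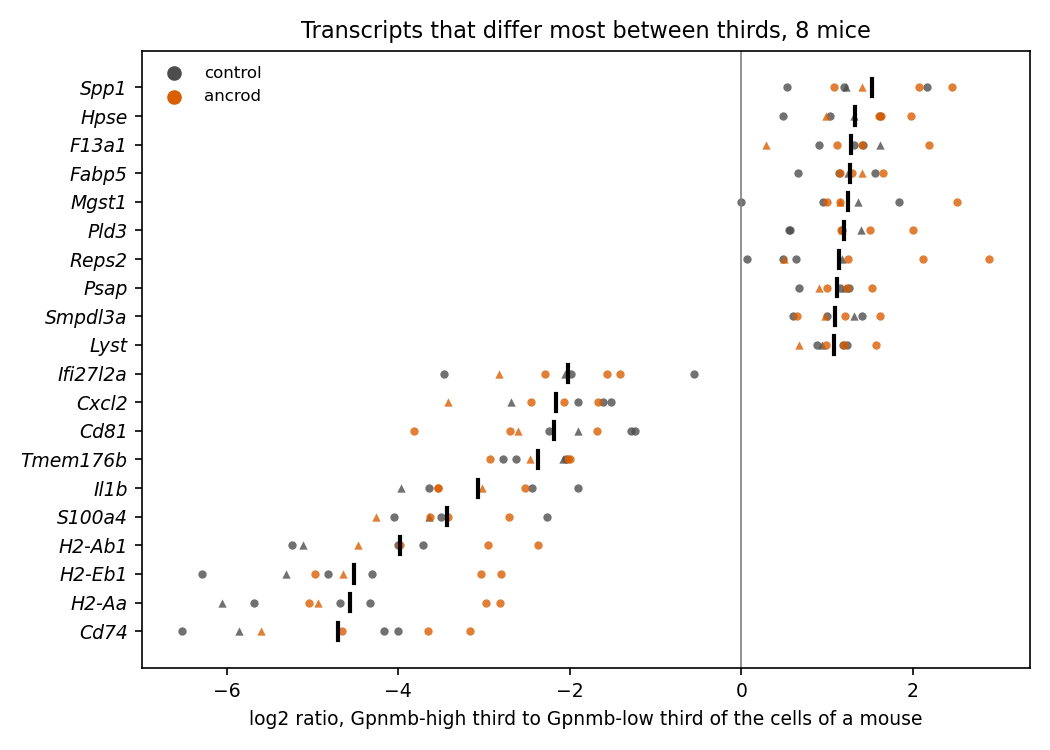
Log2 ratio of CPM between the macrophages with the most and those with the least Gpnmb, for the 10 genes with the highest mean ratio after Gpnmb and the 10 with the lowest. Points are the 8 mice (grey control, orange ancrod, triangles batch 2), and bars are means, from 1.52 for Spp1 to -4.70 for Cd74.

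Whether fibrinogen depletion changed the number of macrophages was examined with 1 share per mouse. The macrophages made up 2.07%, 2.66%, 4.60% and 1.93% of kept droplets in control mice and 4.04%, 4.01%, 5.00% and 3.98% in ancrod mice. Control mouse 3 lay among the ancrod mice, and the other 3 control mice lay below all of them. The means were 2.82% ± 1.23 and 4.26% ± 0.498 (SD, n = 4), a ratio of 1.51, with p = 0.114 by a two-sided exact permutation test over 70 arrangements and 0.457 after Benjamini-Hochberg adjustment over the 8 measures planned. The smallest p this design allows is 0.0286. Within batch 1 the difference was 1.24 percentage points, and between the single mice of batch 2 it was 2.05.

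As a share of droplets with Tyrobp, an adaptor gene of myeloid cells, the macrophages reached 4.44% ± 1.50 in control mice and 6.93% ± 0.996 in ancrod mice (exact permutation p = 0.0571, adjusted 0.457, n = 4). The 2 groups overlapped, since control mouse 3 had 6.60% and ancrod mouse 1 had 5.57%. Without shallow droplets the shares among kept droplets were 2.33% ± 0.905 and 3.58% ± 0.303 (exact permutation p = 0.0857, n = 4), and among Tyrobp droplets 3.65% ± 1.17 and 5.85% ± 0.946 (exact permutation p = 0.0571, n = 4). A difference in the share of macrophages was thus not separable from the spread between mice. A share also moves with the number of other cells recovered, and ancrod libraries were deeper.

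**Figure D4:**
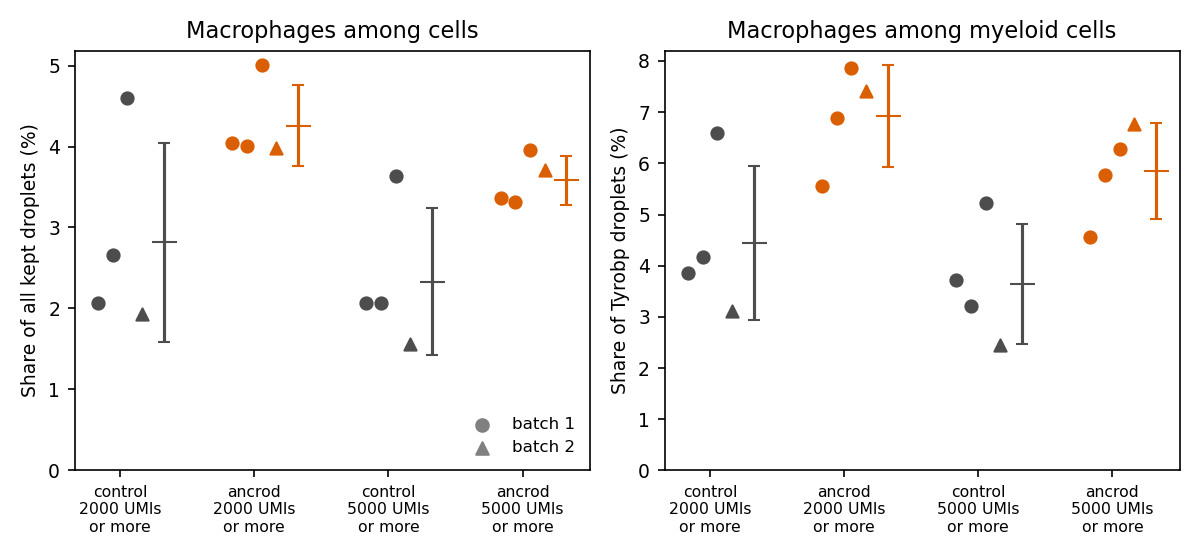
Macrophages as a percentage of kept droplets (left) and of Tyrobp droplets (right), with 1 point per mouse, circles for batch 1 and triangles for batch 2, and the mean ± SD beside each group of 4, for droplets with at least 2000 and at least 5000 UMIs. Control mouse 3, at 4.60% of kept droplets, lies among the ancrod mice.

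Of the other 6 measures, 4 are shares of cells with transcripts that the gate used. Their tests counted in the adjustment over 8 measures but are not read, and the shares are given as a description. The share of thinned macrophages with a Gpnmb UMI was 91.7% ± 4.65 in control mice and 88.8% ± 4.52 in ancrod mice, with 0.985% to 2.16% in endothelial droplets, and without thinning 59.1% to 84.7% of all members held one. A UMI of at least 1 of the 5 division genes was found in 8.25% ± 2.23 and 8.25% ± 1.69 of thinned macrophages, with 3.67% to 7.95% in endothelial droplets. For the interferon genes the shares were 11.6% ± 6.87 and 15.4% ± 5.83, with 60.6% to 77.3% in endothelial droplets, and their differences ran in opposite directions in batch 1 (8.09 percentage points) and batch 2 (-8.95). Without thinning, 27.7% to 34.7% of members held a division gene and 22.1% to 51.4% an interferon gene. The gate limits both sets of genes. Median UMIs per macrophage were 23088 ± 2885 and 21935 ± 3239, and median mitochondrial shares 3.04% ± 0.218 and 3.09% ± 0.322 (exact permutation p = 0.571 and 0.829, n = 4).

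Expression was compared between ancrod and control mice with UMIs summed over the members of each mouse (2677057 to 6508859 UMIs) and tested with edgeR's quasi-likelihood test. Levels in this comparison are CPM on normalised library sizes, which differ somewhat from the CPM given above, and errors of log2 fold changes are standard errors computed from the F statistic. With an adjusted p below 0.05, 0 of 10431 genes were called (0%), while 458 had an unadjusted p below 0.05 (2.44% of genes higher in ancrod mice and 1.96% lower). DESeq2 called 25 of 12451 genes (0.201%), 16 higher (0.129%) and 9 lower (0.0723%). Without shallow members, edgeR tested 10279 genes and called 0, and 426 had an unadjusted p below 0.05. With batch as a covariate edgeR called 1 gene, Kcnip4, a potassium channel-interacting protein gene (adjusted p = 0.00153). It had 1, 2, 3 and 4 UMIs in control mice and 83, 27, 31 and 538 in ancrod mice, of which 4, 27, 28 and 41 remained without doublets.

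The gate selected droplets on Gpnmb, Ms4a7, Fabp5 and Arg1, so their values in the groups are given as a description and their tests are not read. Gpnmb was at 3505 ± 390 CPM in control mice and 3071 ± 507 in ancrod mice, and Ms4a7 at 785 ± 135 and 796 ± 110 CPM. Fabp5 was at 4093 ± 910 and 3723 ± 741 CPM. Arg1 was at 14.1 ± 11.2 and 40.2 ± 41.2 CPM, where ancrod mouse 2 alone had 101 CPM and the groups overlapped. Lyz2, which the gate did not use, was at 31591 ± 3760 and 27001 ± 6370 CPM (log2 fold change -0.23 ± 0.17, adjusted p = 0.994), and its fold change was -0.08 without ancrod mouse 2 and -0.14 without control mouse 1. Spp1, at 55029 ± 6410 and 48503 ± 18742 CPM, and Apoe, at 70026 ± 11839 and 61569 ± 9765 CPM, also overlapped between the groups, and the log2 fold change of Spp1 went from -0.18 to 0.05 without ancrod mouse 2.

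Across the 16 pathway lists, 0 genes were called by edgeR, where 0% of all genes were. Lipid handling had 12 of 15 genes below 0 and a median log2 fold change of -0.13, and lysosome genes had 15 of 15 below 0 with a median of -0.19, while the median over all genes was 0.01. Without ancrod mouse 2, the lysosome median was -0.09 with 14 of 15 below 0. Other lists leaned the opposite way, with 7 of 9 alternative activation genes above 0 (median 0.20), 8 of 10 inflammatory cytokines and enzymes (0.13) and 9 of 11 matrix proteases and inhibitors (0.14). Complement and Fc receptors had 12 of 13 below 0 (-0.10) and macrophage transcription factors 11 of 14 (-0.07), where 48.0% of all genes were below 0. These medians were small and moved with single mice: without 1 mouse at a time, that of alternative activation fell to 0.11 (without ancrod mouse 2), that of the inflammatory list to -0.02 (without control mouse 4) and that of matrix proteases to 0.05 (without control mouse 1). The lysosome values were small and ranged from -0.52 for Ctsl to -0.09 for Ctss, and 1 of the 15 had an unadjusted p below 0.05. No lysosome gene separated the groups. Ctsl, a cathepsin, was at 1899, 3306, 2337 and 2806 CPM in control mice and 1772, 1189, 2556 and 1718 CPM in ancrod mice.

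Of 188 tested list genes, 1 had every ancrod mouse above every control mouse and 3 every ancrod mouse below, beside 1.22% and 1.23% of all genes. The 4 genes are given as values. Il1b was at 127, 86.2, 106 and 58.1 CPM in control mice and 157, 148, 130 and 127 CPM in ancrod mice. The groups were barely apart, with control mouse 1 at 126.6 and ancrod mouse 4 at 126.8 CPM. Before normalisation control mouse 1 lay above ancrod mouse 4, so the groups overlapped. The log2 fold change of Il1b was 0.57 ± 0.19 (edgeR unadjusted p = 0.0125, adjusted p = 0.994). Itgav was at 695, 665, 511 and 550 CPM in control mice and 488, 449, 492 and 470 CPM in ancrod mice, each ancrod value below each control value (-0.35 ± 0.11, adjusted p = 0.994). Pdgfc, a platelet-derived growth factor gene, had a log2 fold change of -0.46 ± 0.19 and the iron transporter gene Slc11a1 -0.16 ± 0.09, both with every ancrod mouse lower (adjusted p = 0.994 for each). For Slc11a1 the nearest values were 132.9 CPM in control mouse 3 and 132.2 CPM in ancrod mouse 3. Pdgfc moved to -0.30 without ancrod mouse 3, and Slc11a1 to -0.08 without control mouse 1. Without shallow members, Il1b was at 0.57 and Itgav at -0.35.

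Other list genes that were nearest to the threshold overlapped between the groups. Vegfa, the vascular growth factor, was at 81.1 ± 25.7 CPM in control mice and 115 ± 9.37 CPM in ancrod mice (log2 fold change 0.50 ± 0.18). The glycolytic gene Pfkp was at 19.8 ± 3.14 and 27.9 ± 5.93 CPM (0.51 ± 0.18). Cd74, whose spread between mice was wide, was at 656 ± 291 and 715 ± 454 CPM (0.13 ± 0.44), and its sign turned without ancrod mouse 2 (-0.40) or control mouse 2 (-0.14). All had an adjusted p of 0.994 or higher.

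**Figure D5:**
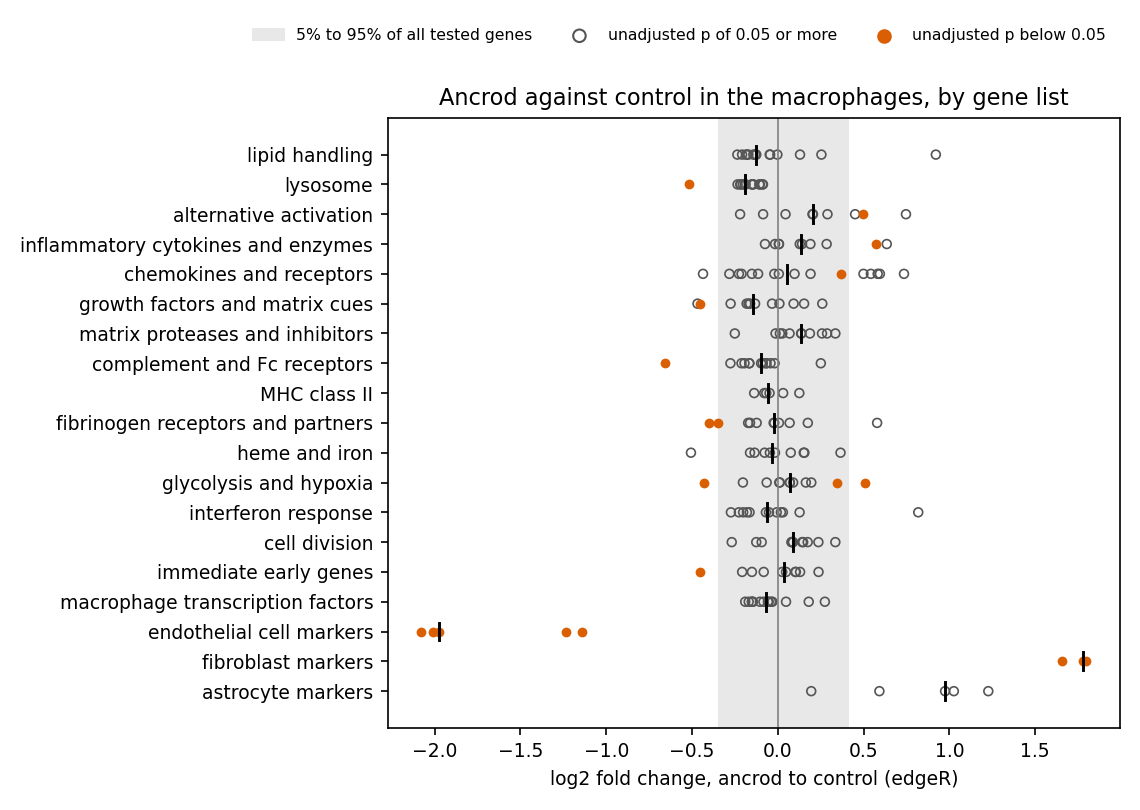
Log2 fold change of ancrod to control in the macrophages (edgeR, 4 mice per group) for each tested gene of the 16 pathway lists and of 3 marker lists of other cells; bars are list medians, filled points have an unadjusted p below 0.05, and the grey band holds the middle of all tested genes, from -0.34 to 0.41. Lysosome genes lie between -0.52 and -0.09, and 5 endothelial markers lie at or below -1.14.

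The genes with the lowest p were expressed at low levels, and several of the falls moved when the 42 of 1650 members scored as doublets were removed. Slc7a5, an amino acid transporter of many cells including brain endothelium, was at 11.8, 11.8 and 11.2 CPM in control mice 1, 2 and 4, with control mouse 3 higher, and at 4.39, 5.99, 6.41 and 5.19 CPM in ancrod mice. The groups did not overlap, and the log2 fold change was -1.13 ± 0.16 with an edgeR adjusted p of 0.178. Without droplets scored as doublets the fold change of Slc7a5 was -0.11 (adjusted p = 0.984). Jcad, a junction protein gene of endothelium, was at 7.72 ± 2.91 and 1.51 ± 0.554 CPM (-2.39 ± 0.35, adjusted p = 0.178). It held 127 UMIs in the control mice together and 34 in the ancrod mice, and without doublets 25 and 24, too few for the edgeR test. Calcrl, Cd34 and Ly6a, which endothelial cells also express, were the next falls, at -0.75 ± 0.13, -1.42 ± 0.26 and -1.67 ± 0.32 (adjusted p = 0.411, 0.467 and 0.467). Without doublets, Cd34 was at -0.75 and Ly6a at -1.01. Calcrl moved little, from -0.86 to -0.71 over the alternative settings. It held 268 UMIs in the control mice together and 232 in the ancrod mice, and without doublets 247 and 222. Without shallow members Slc7a5, Jcad, Calcrl, Cd34 and Ly6a were at -1.16, -2.45, -0.80, -1.65 and -1.90. DESeq2 called Slc7a5, Jcad and Ly6a, with adjusted p of 0.0115, 0.00164 and 0.00813, on all members.

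Rises with the lowest p included genes known from neurons. Kif5a, a neuronal motor protein, was at 1.71 ± 0.520 CPM in control mice and 5.06 ± 0.729 CPM in ancrod mice (1.66 ± 0.29, adjusted p = 0.411). Nrg1, which encodes a neuregulin, was at 5.01 ± 1.27 and 32.9 ± 24.9 CPM (2.64 ± 0.51, adjusted p = 0.497). Its fold change was 1.52 without doublets and 1.98 without ancrod mouse 4. Its symbol is shared by more than 1 gene identifier, and only the tested one is given. Edil3, Camk2n1 and Pde4dip followed with adjusted p of 0.695. DESeq2 called Nrg1 and Edil3, with adjusted p of 9.03e-05 and 0.0300.

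Markers of other cells moved with the groups. All 5 endothelial markers had an unadjusted p below 0.05 and were lower in ancrod mice, with a median log2 fold change of -1.98, and 4 of 5 did not overlap between the groups. Without that normalisation, their summed level was 73.3 to 163 CPM in the macrophages of control mice and 16.3 to 67.8 in those of ancrod mice, and in empty droplets 1621 to 1896 and 823 to 1867. Without doublets the endothelial sums were 18.1 to 32.2 and 16.6 to 27.3 CPM, and the groups overlapped. Of the fibroblast markers, Col1a1 and Col1a2 are limited by the gate. The 6 fibroblast markers summed to 3.54 to 16.5 CPM in control mice and 21.1 to 55.0 in ancrod mice, and in empty droplets to 448 to 2279 and 950 to 5197. Without doublets the fibroblast sums were 3.13 to 16.02 and 20.6 to 55.7 CPM, and the groups stayed apart. The edgeR test held 3 of these markers, Col3a1 and the gate genes Col1a1 and Col1a2. All 3 were higher in ancrod mice, with an unadjusted p below 0.05 and a median log2 fold change of 1.78. Each overlapped between the groups, and the smallest adjusted p was 0.722. Neuron markers summed to 0.701 to 1.86 and 2.41 to 65.5 CPM in the macrophages, and to 78.1 to 225 and 169 to 747 in empty droplets. They did not pass the filter on low counts of the edgeR test, and DESeq2 called 2 of them higher in ancrod mice, Snap25 (log2 fold change 5.95, adjusted p = 0.00217) and Syt1 (5.76, adjusted p = 0.0391). Snap25 had 1, 1, 1 and 0 UMIs in control mice and 173, 7, 13 and 83 in ancrod mice. Without doublets the neuron sums were 0.373 to 1.52 and 1.63 to 6.72 CPM. The 5 astrocyte markers had a median of 0.97, with overlap. The part of fibroblast, neuron and astrocyte RNA in the differences between the groups was not tested.

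Whether the effect of ancrod in macrophages differed from that in microglia of the same mice was tested with an interaction term and the mouse as a block. With edgeR, 0 of 13295 genes were called, with 809 at an unadjusted p below 0.05 (0 of 13188 without shallow members), and DESeq2 called 1 of 18551 (0.00539%). Cd34 had the lowest p, at 7.49 CPM in control and 2.84 CPM in ancrod macrophages and 58.6 and 65.2 CPM in microglia (difference of log2 fold changes -1.57 ± 0.22, adjusted p = 0.164). Without doublets the difference was -0.94 (adjusted p = 0.770). Cacna1c followed with an adjusted p of 0.368.

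The same test against monocytes called 0 of 10600 genes with edgeR, 758 having an unadjusted p below 0.05 (0 of 10516 without shallow members), and DESeq2 called 4 of 16741 (0.0239%), 3 higher (0.0179%) and 1 lower (0.00597%). Plk2, a stress-responsive kinase gene, was at 80.4 and 75.6 CPM in control and ancrod macrophages and at 48.2 and 12.5 CPM in monocytes (difference 1.81 ± 0.24, adjusted p = 0.0632). Osm was at 128 and 157 CPM in macrophages and at 98.2 and 38.3 CPM in monocytes (1.67 ± 0.26, adjusted p = 0.101). P2ry10b was at 15.2 and 22.2 CPM and at 46.2 and 23.1 CPM (1.54 ± 0.23, adjusted p = 0.101). In these 3 genes most of the difference came from lower values in the monocyte gate of ancrod mice. That gate also held dendritic, T or NK cell genes, whose part in the difference was not tested. There were 38 to 251 monocytes per ancrod mouse and 26 to 215 per control mouse.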

How the data were processed

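Cells from the lesion of 8 mice were measured by droplet single-cell RNA sequencing. The authors deposited raw UMI counts per gene and barcode for each mouse, which per the labels came from Cell Ranger 7.1.0 with STAR on GRCm39. Depth ranged from 97861434 to 142139441 UMIs per library, and replicates are mice.

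Droplets were gated as described, members and gene lists having been chosen with earlier results of these data known. UMIs were summed per mouse and tested with edgeR 4.0.16 (filterByExpr, TMM, quasi-likelihood test, Benjamini-Hochberg threshold 0.05) in R 4.3.3, with DESeq2 1.42.0 as the alternative. Shares were compared by two-sided exact permutation tests, after thinning to 5000 UMIs where a UMI was scored. Thinning drew UMIs at random, anew whenever a setting changed the set of cells. Scripts were tested on simulated counts. Kept droplets were not cleared of doublets, and their removal was an alternative, at 0.8% per 1000 droplets.

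Named genes were those of the gate, the leading 15 or 6 by ratio, the highest and lowest-p gene of each list, the 5 rises and 5 falls and the 3 interaction genes with the lowest p, and the 8 highest and 8 lowest between Arg1 cells and others. Further genes named were chosen after their values were seen. Some genes that the rule names are not reported here. Equal replicate numbers were not treated as pairs. The deviations of mice with the same number correlated at -0.196 to 0.0602, which shows no pairing and does not settle it. Control mouse 4 and ancrod mouse 4 share batch 2.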

Additional observations from a re-analysis of the deposited data

Results flagged for a closer look

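Among 84 groups of 4 mice, 7 held a mouse far from the other 3, and chance gives such a value in about 1 in 20 groups. Ancrod mouse 3 had 5.00% macrophages among kept droplets, with 3.98% to 4.04% in the other ancrod mice. Ancrod mouse 2 had a Gpnmb UMI in 82% of thinned macrophages, with 90.7% to 91.5% in the others. Control mouse 3 had a division gene in 11.6%, with 6.85% to 7.29% in the others. Control mouse 4 had an interferon gene in 21.9%, with 7.89% to 8.33% in the others. Shares of thinned cells rest on 1 random draw of UMIs per cell, and these moved with the draw. Without doublets, with UMIs drawn anew, control mouse 3 had a division gene in 5.41%, with 6.67% to 10.3% in the other control mice. More changed than the removal of cells, from 190 to 185, allows. Control mouse 4 then had an interferon gene in 17.6%, with 9.19% to 15.6% in the others. Stmn1 was at 37.5 CPM in ancrod mouse 4 and 51.5 to 53.7 CPM in the others. Ly6a was at 9.53 CPM in control mouse 1 and 24.7 to 25.3 CPM in the others. Lyz2 was at 36223 CPM before normalisation in control mouse 1 and 28561 to 29669 in the others.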

How the results depend on the processing

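Differences are ancrod minus control. Without 1 mouse at a time they ranged from 1.15 to 2.04 percentage points for macrophages among kept droplets, 2.05 to 3.21 among Tyrobp droplets, -5.04 to -0.694 for Gpnmb cells, and 0.974 to 7.26 for interferon gene cells, all in 1 direction each. The sign of 4 measures changed: median UMIs (-2590.5 to 237.5, positive without control mouse 4), mitochondrial percent (-0.0602 to 0.160), Arg1 cells (-0.857 to 1.08) and division gene cells (-0.804 to 1.11). Signs also turned for mitochondrial percent at 5000 or more UMIs (-0.0835). So did those of Arg1 cells at a marker sum of 20 (-0.357) or under 10% mitochondrial (-0.0633). Division gene cells turned at a marker sum of 20 (-1.63), and interferon gene cells without doublets (-0.555). The settings of Arg1, division gene and interferon gene cells also drew the thinned UMIs anew. In control mouse 2 the interferon share went from 8.33% of 96 cells to 15.6% of 90 without doublets, which removal alone cannot do. Draw and setting were not separated. Without doublets, the fold changes of Slc7a5, Nrg1, Cd34 and Ly6a moved by over 1.5 times, to -0.11, 1.52, -0.75 and -1.01, and Jcad was too low to test. Without 1 mouse at a time, Cd74 (0.13) ranged from -0.404 to 0.369, turning without ancrod mouse 2 or control mouse 2 (-0.144), and Spp1 (-0.18) from -0.380 to 0.0506, turning without ancrod mouse 2. The replicate block put Cd74 at -0.0197. The cause was not tested.

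For ancrod against control, edgeR called 0 genes, DESeq2 25 and the batch covariate 1, Kcnip4. The replicate block also gave 1 call, Kcnip4, which the fit without the block did not call. Equal numbers were not shown to pair the mice. Against microglia, DESeq2 called 1 gene and a fit of every gene with a UMI 1. Against monocytes these gave 4 and 3, and leaving out 1 mouse gave 0 to 4, the 4 arising without control mouse 3. Nrg1, Edil3, Slc7a5, Jcad, Ly6a, Snap25 and Syt1, and Cd34 against microglia, passed under DESeq2 alone. With fewer than 4 mice in a group the exact tests cannot reach 0.05, the smallest p being 0.0571.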
